A study of Mus musculus with 12 samples.

Results

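RNA of G1E-ER4 cells kept with the zinc chelator DTPA was compared directly with RNA of the same cells kept with the iron chelator DFO, as 3 libraries against 3 of the 12 in the series. All genes with a level of at least 1 TPM in at least 3 of the 12 libraries entered, 11917 in all. TPM is an abundance per transcript length that sums to a fixed total in each library. G1E-ER4 is a mouse erythroid progenitor line without a functional Gata1 gene of its own. It carries GATA1, the master transcription factor of red cell development, fused to the hormone-binding domain of the estrogen receptor, so that estradiol starts maturation. Every culture in the series received 100 nM β-estradiol, and the RNA was collected after 24 h. The DTPA group had 50 µM DTPA and the DFO group 50 µM DFO from the start of that period. The control group had estradiol alone and is given here as a level beside the other groups. A group labelled SA was made to lower the activity of the heme synthesis enzyme ALAD. It entered the gene filter, the estimate of the spread, the rescaling of libraries and the principal components, but not the contrast. The medium also held erythropoietin, Kit ligand from conditioned medium and serum. All libraries come from 1 cell line that responds through a hormone-driven GATA1 fusion, which limits it as a model of red cell precursors in the animal. The labels call the 3 libraries of a group biological replicates without saying what separates them, and p-values therefore reflect no more than the variation among these libraries. TPM keeps no read total, but values multiplied by exon length fell on whole reads and gave 19853579 to 24342319 reads per library, with 1 read worth 0.124 to 0.160 TPM for a transcript of 1 kb.

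Zinc and iron are both needed by a maturing red cell, and cells sense them in different ways. When zinc is plentiful the factor MTF1 binds metal response elements in promoters and switches on the metallothioneins, small zinc-binding proteins, and the zinc exporter gene Slc30a1. Importers of the ZIP family bring zinc into the cytosol, and exporters of the ZnT family take it out or into vesicles. When iron is scarce the iron regulatory proteins bind stem-loops in messenger RNAs. There they protect the transferrin receptor message from decay and block translation of ferritin and of the erythroid heme synthesis enzyme ALAS2. Iron chelators can also stabilise hypoxia-inducible factors, because the prolyl hydroxylases that mark those factors for destruction need iron. Zinc is a cofactor of ALAD, the enzyme of the second step of heme synthesis, and iron is inserted in the last step by ferrochelatase, encoded by Fech. DTPA binds several metals and acts largely outside the cell, while DFO, deferoxamine, is highly selective for ferric iron.

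The binding motifs of MTF1 and of hypoxia-inducible factors are short, and promoter stretches that hold them are shown first. Some of the genes behind them, Mt2 and Mt1 foremost, carry some of the largest differences. Slc30a1 differed by less than 2-fold. The sequences are from RefSeq promoter windows of GRCm38.p6, which run from 250 bases before to 50 bases after each RefSeq start. Capitals mark the metal response element core TGCGCNC or TGCACNC in the stretches of Mt2, Mt1 and Slc30a1 and the hypoxia response element core ACGTG in those of Ldha, Bnip3 and Pgk1. The Ldha stretch also holds a metal core, left in lower case. Both motifs were searched on both strands, so that a core on the other strand is seen as its reverse complement. ACGTG and its reverse complement CACGT overlap in CACGTG, which counts as a match on both strands.
Mt2, 230 to 1 bases before the start (chr8:94172388-94172617, plus strand): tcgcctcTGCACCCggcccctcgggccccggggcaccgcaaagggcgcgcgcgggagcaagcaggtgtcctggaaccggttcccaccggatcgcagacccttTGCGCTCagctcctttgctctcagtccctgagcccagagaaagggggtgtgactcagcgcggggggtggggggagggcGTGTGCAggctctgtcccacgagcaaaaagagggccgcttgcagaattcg
Mt1, 60 to 1 bases before the start (chr8:94179029-94179088, plus strand): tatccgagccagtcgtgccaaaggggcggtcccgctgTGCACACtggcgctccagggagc
Slc30a1, 100 to 1 bases before the start (chr1:191906681-191906780, plus strand): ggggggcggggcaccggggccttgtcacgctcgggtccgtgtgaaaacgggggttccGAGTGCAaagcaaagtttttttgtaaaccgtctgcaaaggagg
Ldha, 160 to 21 bases before the start (chr7:46845644-46845783, plus strand): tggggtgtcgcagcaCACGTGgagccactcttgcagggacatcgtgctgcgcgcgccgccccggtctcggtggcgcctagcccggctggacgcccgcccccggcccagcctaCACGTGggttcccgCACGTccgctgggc
Bnip3, 130 to 81 bases before the start (chr7:138909587-138909636, minus strand): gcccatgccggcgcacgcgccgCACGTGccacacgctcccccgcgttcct
Pgk1, 170 to 111 bases before the start (chrX:106186930-106186989, plus strand): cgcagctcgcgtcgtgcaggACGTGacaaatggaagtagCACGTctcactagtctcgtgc

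Mt2 and Mt1, the metallothionein genes of these cells, held 4 and 3 metal cores in their whole windows, and Slc30a1 held 2. A metal core was found in 25.7% of all 32851 windows and in at least 1 window of 40.7% of the 7841 tested genes that had one. It was found for 4 of 8 ZIP genes and 3 of 6 ZnT genes with a window, while the windows of Slc39a10 and Mtf1 held none. The Slc39a10 windows (chr1:46925727-46926026 and chr1:46853569-46853868) do not cover the GENCODE M21 start of that gene at chr1:46892852. That start was therefore not searched. The hypoxia core was found in 19.6% of all windows and for 31% of the tested genes with a window. Among glycolytic enzyme genes 11 of 17 had it, and the metal core was found for as many. Among other hypoxia-inducible genes 11 of 13 had the hypoxia core and 8 the metal core. A match is a description of the letters in the window and not a measured binding site.

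The expression of most genes differed between the chelators, mostly by little. Of the 11917 genes, 7857 were called at an adjusted p under 0.05 by limma on log2(TPM + 1), which is 65.9%. With DTPA 2330 genes were higher (19.6%) and 5527 were lower (46.4%), and the median absolute log2 fold change of the called genes was 0.44. At least 2-fold differences were seen for 1077 called genes, 347 higher (2.91%) and 730 lower (6.13%) with DTPA. At least 4-fold differences were seen for 62 higher and 148 lower genes. All 3 DTPA libraries lay above all 3 DFO libraries for 2505 genes (21%) and below them for 5793 (48.6%). In every sentence below a log2 fold change is DTPA minus DFO on the log2(TPM + 1) scale, which understates the change of genes near 1 TPM, and a ratio is one of group mean TPM.

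The surplus of lower genes depends on the scale. TPM sums to a fixed total, and 3 abundant gene groups took a larger share of it with DTPA. Globin genes held 5.34% ± 0.486 (SD, n = 3 libraries, here and throughout) of TPM with DTPA and 2.50% ± 0.0490 with DFO, against 3.70% ± 0.274 in control. Cytosolic ribosomal protein genes held 12.0% ± 0.273 with DTPA and 9.26% ± 0.0601 with DFO, and mitochondrially encoded genes 7.45% ± 0.113 and 6.28% ± 0.102. For each of these shares the DTPA libraries all lay above the DFO libraries, and the exact two-sided permutation test gave p = 0.1, the smallest that 3 libraries against 3 allow. Rescaling the libraries by the median of gene ratios moved the median log2 fold change of all genes from -0.16 to 0.0048, a shift of 0.16. With that scaling 3775 genes were higher (31.7%) and 3806 lower (31.9%). The 2330 genes called higher as deposited were also called higher after rescaling. Of those called lower as deposited, 3806 were lower in both, 1607 were no longer called and 114 were called higher. Counts below are for the values as deposited, with the rescaled count beside them where it differs by over 1.5 times. They stand beside 19.6% of all genes higher and 46.4% lower as deposited, and 31.7% and 31.9% after rescaling.

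**Figure D1:**
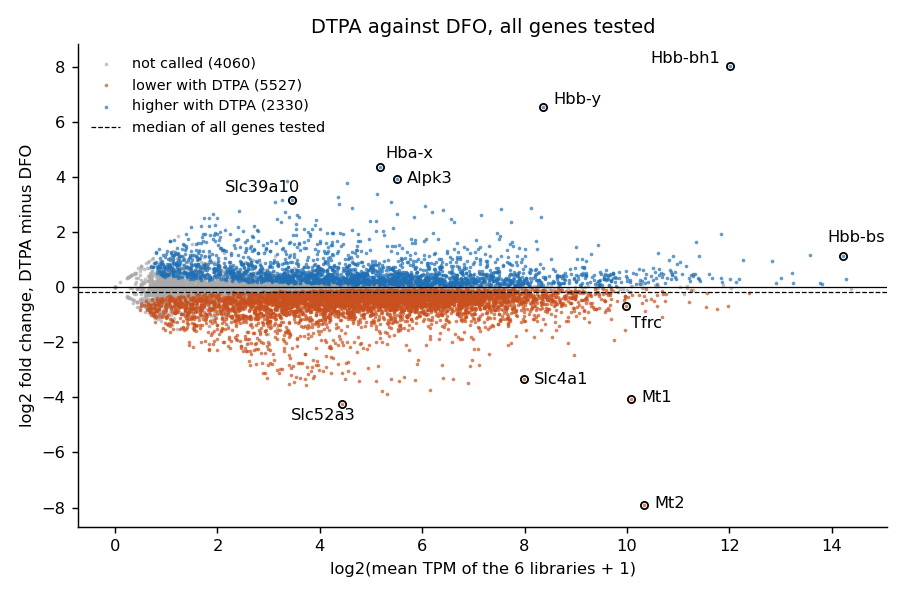
Each point is 1 of the 11917 genes, with the mean TPM of the 6 libraries on a log2 axis across and the log2 fold change (DTPA minus DFO) upwards, coloured by call, and with 11 genes named. The embryonic globin Hbb-bh1 stands at the top with 8.04 and the metallothionein Mt2 at the bottom with -7.90, and the dashed line marks the median of all genes at -0.16.

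Most of the large differences lay on the DTPA side of control. Among the 1077 genes that differed at least 2-fold, the control mean was nearer to the DFO mean in 1036 (96.2%), and among all 7857 called genes in 7237 (92.1%). Of the 811 protein-coding genes in the first set, 5 had control nearer to DTPA: Hbb-bs, Hbb-bt, Srxn1, Rasl2-9 and A830005F24Rik. Srxn1, Rasl2-9 and A830005F24Rik were singled out after their values were seen. On the first principal component of the 12 libraries, which took 61.4% of the variance, the DTPA libraries lay at 53.6 to 55.0. DFO libraries lay at -16.8 to -16.0 and control libraries at -19.3 to -17.9, so that this axis sets DTPA apart from the rest.

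Zinc handling genes held the largest fall of the whole comparison and 1 of the largest rises. All 3 genes tested from the list of metallothioneins with Mtf1 were lower with DTPA, beside 46.4% of all genes, with a median log2 fold change of -4.05. Slc39a10, which encodes the importer ZIP10, was higher with DTPA and near its control level with DFO. The other zinc transporters tested differed by less than 2-fold, some higher and some lower.

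Mt2 (ENSMUSG00000031762.7, chr8:94172664-94173568, plus strand) stood at 8.36, 10.5 and 10.6 TPM with DTPA and at 2477, 2853 and 2419 TPM with DFO. Every DTPA library lay far below every DFO library, and the DFO level was close to the control level of 2519 ± 83.7. The log2 fold change was -7.90 (95% interval -8.08 to -7.73, limma adjusted p = 3.05e-14), and the mean was 263-fold higher with DFO. Mt1 (ENSMUSG00000031765.8, chr8:94179082-94180327, plus strand) gave 126, 122 and 119 TPM with DTPA and 2033, 2059 and 2017 with DFO, against 1872 ± 71.4 in control. The groups were again far apart (log2 fold change -4.05, adjusted p = 3.76e-15), and Mt1 kept a higher level with DTPA than Mt2. Mtf1, the gene of the zinc sensor itself, differed little, at 16.3 ± 0.535 TPM with DTPA and 23.1 ± 0.684 with DFO (log2 fold change -0.48, and -0.30 after rescaling). Exons of Mt2 and Mtf1 overlap a gene on the other strand, and the counting is not stated to use strand. The same holds for Slc25a37, Pcbp1, Ftl1, Cpox, Me1, Slc48a1, Tmod1, Tpi1, Aldoa, Bnip3, Shmt2, Hmgcs1, Cdc25c, Ube2c, Ckap2l, Kif4, Atg14, mt-Co1, Zfp27 and Hist1h2al below. Overlaps were searched only for genes of the naming rule given at the end, and not for those chosen after their values were seen.

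Slc39a10 (chr1:46807544-46892852, minus strand) was at 18.9, 17.9 and 19.2 TPM with DTPA and at 1.18, 1.05 and 1.36 with DFO. Control libraries were at 1.49, 1.62 and 1.64, so that DTPA alone stood high. The log2 fold change was 3.16 (SE 0.11, adjusted p = 2.88e-10) and the mean ratio 15.6-fold, while a pseudocount of 5 TPM reduced the log2 fold change to 1.93. Slc30a1 (chr1:191906767-191913247, plus strand), which encodes the exporter ZnT1 of the outer cell membrane, gave 74.7, 76.5 and 69.8 TPM with DTPA and 39.9, 37.6 and 34.7 with DFO, with control at 38.96 ± 2.26. It was higher with DTPA in 3 of 3 libraries (log2 fold change 0.96, adjusted p = 2.86e-08), the opposite direction to the metallothioneins. Exons of Slc30a1 overlap a gene on the other strand.

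Of the 9 ZIP importers tested, 2 were higher and 4 lower (4 higher and 3 lower after rescaling, median -0.05), shares near the 19.6% and 46.4% of all genes. Slc39a1 was the other higher one (0.25, rescaled 0.43), and Slc39a3 the lowest (-0.76). Slc39a8, the most abundant ZIP message in these cells, was at 239 ± 2.901 TPM with DTPA and 307 ± 9.01 with DFO. Of the 6 ZnT exporters, 2 were higher and 3 lower (3 higher and 3 lower after rescaling). Slc30a7, whose product loads zinc into the secretory pathway, was higher by 0.28 (rescaled 0.45). Slc30a9 was lower by 0.69, at 39.3 ± 1.38 against 63.9 ± 0.858 TPM, and Slc30a5 by 0.51 (rescaled -0.33). Slc39a11 was lower by 0.50, a call lost without the second DFO library (adjusted p = 0.054, log2 fold change -0.40).

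**Figure D2:**
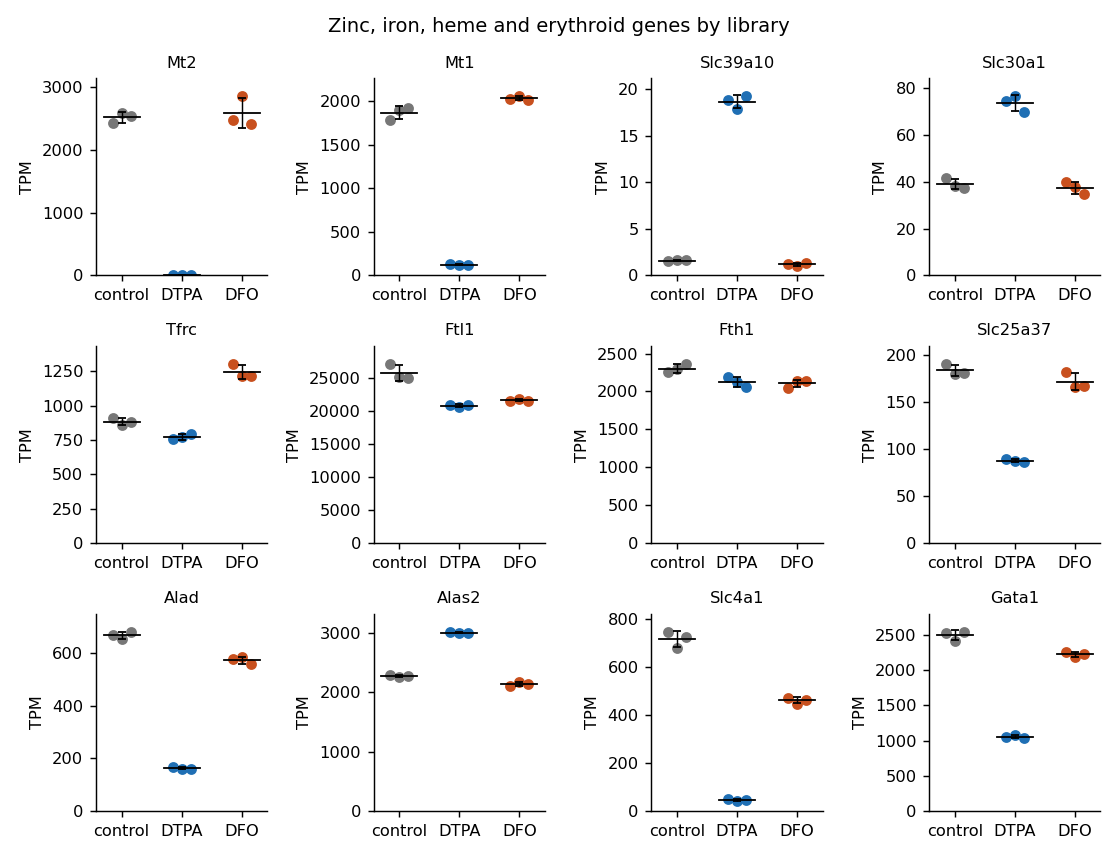
Each panel shows the TPM of 1 gene in the 3 control, 3 DTPA and 3 DFO libraries on a linear axis from 0, with bars at the group mean and whiskers of 1 SD. DFO and control lie close together for Mt2, Mt1, Slc39a10 and Slc30a1 while DTPA stands apart, whereas Tfrc is highest with DFO and Fth1 and Ftl1 overlap or nearly meet between the chelators.

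Iron handling genes all differed by less than 2-fold. For the transferrin receptor gene Tfrc the chelators lay on opposite sides of control in the values as deposited, DFO above and DTPA below. Ferritin messages were not called in either direction. The mitochondrial iron importer Slc25a37, mitoferrin-1, was nearly 2-fold lower with DTPA.

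The messages that iron regulatory proteins bind carry a hairpin with the loop CAGTGN above 5 paired bases and a C bulged out 5 bases before the loop. A search of the GENCODE M21 transcripts (build GRCm38) for that pattern found it in the untranslated regions of 5 of the 39 tested genes of the iron and heme lists. A match anywhere in a transcript, coding sequence included, was found for 1.68% of the 9086 protein-coding genes tested. The matches are shown because Tfrc, Slc40a1 and Alas2 were called and the ferritins were not, and capitals mark the loop. The Alas2 match spans an intron.
Tfrc 3′ UTR site 1 (chr16:32631219-32631247, plus strand): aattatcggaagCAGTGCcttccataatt
Tfrc 3′ UTR site 2 (chr16:32631598-32631626, plus strand): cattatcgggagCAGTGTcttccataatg
Tfrc 3′ UTR site 3 (chr16:32631663-32631691, plus strand): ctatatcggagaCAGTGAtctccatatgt
Tfrc 3′ UTR site 4 (chr16:32631710-32631738, plus strand): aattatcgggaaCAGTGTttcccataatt
Fth1 5′ UTR (chr19:9982732-9982760, plus strand): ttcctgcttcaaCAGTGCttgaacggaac
Ftl1 5′ UTR (chr7:45459779-45459807, minus strand): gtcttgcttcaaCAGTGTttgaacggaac
Slc40a1 5′ UTR (chr1:45925465-45925493, minus strand): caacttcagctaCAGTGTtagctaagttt
Alas2 5′ UTR (chrX:150547458-150552149, plus strand): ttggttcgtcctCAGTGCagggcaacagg

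Tfrc, which encodes the receptor that takes up transferrin-bound iron and holds 4 of these matches in its 3′ UTR, gave 755, 769 and 797 TPM with DTPA. With DFO it gave 1302, 1217 and 1217 TPM, and in control 909, 861 and 879.7 TPM. As deposited, all DFO libraries lay above all control libraries and all DTPA libraries below them. Rescaling divides the DTPA libraries by 0.905 to 0.928 and the control libraries by 0.996 to 1.02. It therefore narrows the gap between DTPA and control, which was not tested. The log2 fold change between the chelators was -0.69 (SE 0.0344, adjusted p = 7.09e-09).

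Fth1, the ferritin heavy chain, stood at 2186, 2123 and 2062 TPM with DTPA and 2048, 2131 and 2139 with DFO, and the groups overlapped. The 95% interval of its log2 fold change was -0.05 to 0.07 (adjusted p = 0.71). Ftl1, the ferritin light chain, stood at 20923, 20612 and 20920 TPM with DTPA and 21540, 21759 and 21522 with DFO (interval -0.12 to 0.01, adjusted p = 0.12), with every DTPA library slightly below every DFO library. After rescaling, both ferritin messages were called higher with DTPA, by 0.20 and 0.14. Slc40a1, the iron exporter ferroportin, was higher at 23.7, 24.5 and 23.6 TPM with DTPA against 20.5, 21.2 and 20.7 with DFO (0.20, rescaled 0.38, adjusted p = 0.0016). RNA levels say nothing of translation, which is the step that the 5′ hairpins act on.

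Slc25a37 gave 89.6, 86.96 and 86.8 TPM with DTPA and 182, 166 and 168 with DFO, with no overlap and with control at 184 ± 5.82 near DFO (log2 fold change -0.96, adjusted p = 4.49e-10). Its relative Slc25a28, mitoferrin-2, was not called (-0.03, interval -0.15 to 0.09) as deposited and was called higher after rescaling (0.15). Pcbp1, an iron chaperone that delivers iron to ferritin, was lower by 0.44 (rescaled -0.25). Ncoa4, the receptor that sends ferritin to autophagy, was higher at 277 ± 3.88 TPM against 214 ± 3.45 (0.37, rescaled 0.56). Tfr2, the second transferrin receptor, was higher by 0.31 (rescaled 0.49). Of the 14 tested genes for iron uptake, storage and export, 4 were higher and 6 lower, and 10 higher and 3 lower after rescaling (median -0.04, rescaled 0.14). The shares of all genes were 19.6% higher and 46.4% lower, and 31.7% and 31.9% after rescaling.

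The iron sensors also moved by less than 2-fold. Aco1, which encodes iron regulatory protein 1, was higher with DTPA at 164, 166 and 161 TPM against 129, 131 and 124 (log2 fold change 0.35, rescaled 0.54). Ireb2, which encodes iron regulatory protein 2, was at 38.6 ± 1.81 and 42.1 ± 2.06 TPM. Its fall of 0.13 was called (adjusted p = 0.044) but turned to 0.06 after rescaling, with no call. That call was also lost without each of the first 2 DTPA and the first 2 DFO libraries, with adjusted p between 0.052 and 0.17. Cisd1, a mitochondrial outer membrane iron-sulfur protein, was lower by 0.60 and the iron-sulfur chaperone gene Glrx3 by 0.48 (rescaled -0.29). Of the 9 regulators and sensors 2 were higher and 5 lower, and 2 and 2 after rescaling. The shares of all genes were 19.6% and 46.4%, and 31.7% and 31.9% after rescaling.

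Heme synthesis genes split in both directions. Alad, the step whose enzyme holds zinc, had the largest fall of the pathway with DTPA, and Alas2 and Uros were higher. Fech, whose enzyme inserts the iron, was not called in the values as deposited. Of the 16 genes, 3 were higher and 10 lower with a median of -0.21, and 6 higher and 7 lower after rescaling. Of all genes 19.6% were higher and 46.4% lower with a median of -0.16, and 31.7% and 31.9% after rescaling.

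Alas2, the first and rate-limiting step in red cells, gave 3014, 2994 and 2998 TPM with DTPA and 2096, 2172 and 2141 with DFO. All DTPA libraries lay above all DFO and control libraries (control 2268 ± 17.9, log2 fold change 0.49, adjusted p = 1.77e-10). Its exons overlap those of Apex2 on the other strand. Alad (chr4:62509169-62519918, minus strand) gave 168, 161 and 159 TPM with DTPA against 578, 585 and 559 with DFO and 668 ± 14.4 in control. The DTPA level was a small part of both others, the mean being 3.53-fold higher with DFO (log2 fold change -1.81, SE 0.0256, adjusted p = 2.42e-13).

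Later enzymes of the pathway went in both directions. Uros, the fourth, was higher with DTPA at 120.2, 126 and 122 TPM against 73.6, 69.8 and 68.6 (0.79, adjusted p = 6.93e-08). Urod, the fifth, was lower (-0.39, rescaled -0.20), as was Cpox, the sixth, at 242 ± 4.78 against 450.4 ± 9.76 TPM (-0.90). Fech gave 273 ± 3.89 TPM with DTPA and 266 ± 2.64 with DFO (interval of the log2 fold change -0.0014 to 0.08, adjusted p = 0.082). It was called higher after rescaling (0.23, adjusted p = 9.60e-08) and, as deposited, without the first DTPA library (0.05, adjusted p = 0.045). Slc25a39, the mitochondrial glutathione carrier, was lower at 150.1 ± 1.73 against 310 ± 4.09 TPM (-1.04). Clpx, a mitochondrial unfoldase that activates ALAS, was lower by 0.59.

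Genes for heme traffic and those repressed by the heme sensor BACH1 or driven by the antioxidant factor NRF2 also divided. Hmox1, heme oxygenase 1, was lower with DTPA at 68.9, 69.9 and 61.5 TPM against 94.2, 99.98 and 105, with both groups under the control level of 148 ± 0.718 (-0.57, adjusted p = 2.15e-06). Slc48a1, the lysosomal heme transporter HRG1, was higher at 252, 254 and 252 TPM against 118, 115 and 114 (1.12). Flvcr1, the heme exporter gene, was higher at 80.7, 77.8 and 80.5 against 40.5, 38.5 and 37.3 TPM (1.02). Srxn1, sulfiredoxin, was higher at 85.3, 86.3 and 88.3 against 42.2, 43.2 and 41.7 TPM, with control at 71.7 ± 3.66 between the groups. Nqo1, a quinone reductase and standard NRF2 target, went the other way at 4.97, 7.4 and 6.09 against 20.9, 21.5 and 21.03 TPM (-1.64, adjusted p = 3.41e-08), and Txnrd1 and Me1 were lower by 1.12 and 1.13. The chelators did not overlap for the 5 of these genes given by library, beside 21% of all genes with DTPA wholly above DFO and 48.6% wholly below. In the list of 18, 5 were higher and 11 lower (9 and 9 after rescaling), beside 19.6% and 46.4% of all genes (31.7% and 31.9%).

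Of 22 iron-sulfur cluster assembly genes, 14 were lower with DTPA and 2 higher, beside 46.4% and 19.6% of all genes. After rescaling 11 were lower and 5 higher, beside 31.9% and 31.7%. As deposited the list had a median of -0.31 beside -0.16 for all genes. Bola3, an assembly factor of the late mitochondrial steps, was at 19.9, 23.1 and 23.1 TPM with DTPA and 54.6, 56.96 and 54.1 with DFO (-1.29), and these groups did not overlap. Isca2, another late-acting assembly factor, was lower by 0.94. Iscu, the scaffold on which clusters are built, was higher by 0.23 (rescaled 0.42).

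Embryonic globin genes held the 3 largest rises. Hbb-bh1, Hbb-y and Hba-x were scarce with DFO, more so than in control, and far higher with DTPA. The adult gene Hbb-bs was about 2-fold higher with DTPA, while the adult alpha genes differed little. Of the 10 globin genes tested, Hbb-bh2 reached 1 TPM with DTPA alone, and of the other 9, 6 were higher and none lower.

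Hbb-bh1 (ENSMUSG00000052217.6, chr7:103841637-103843164, minus strand) encodes an embryonic beta-like chain and gave 8294, 7915 and 8645 TPM with DTPA. With DFO it gave 32.7, 33.2 and 26.1 TPM and in control 80.1, 80.3 and 79.1 TPM. The 3 groups did not overlap, and DTPA exceeded DFO 270.4-fold in mean TPM (log2 fold change 8.04, SE 0.0947, adjusted p = 8.31e-14). Hbb-y (chr7:103851749-103853216, minus strand), the other embryonic beta-like gene, gave 677, 601 and 673 TPM with DTPA and 7.68, 3.29 and 7.92 with DFO (log2 fold change 6.55, adjusted p = 2.65e-10). Hba-x (chr11:32276400-32278116, plus strand), the embryonic alpha-like zeta gene, gave 75.5, 67.3 and 60.8 TPM with DTPA and 2.04, 3.07 and 2.02 with DFO (log2 fold change 4.36, adjusted p = 1.99e-09). Control levels of Hbb-y and Hba-x were 14.9 ± 1.401 and 7.85 ± 0.722, above every DFO library of the gene concerned. Hbb-bh2 was also higher, at 6.04, 4.21 and 6.91 TPM with DTPA and 0, 0.574 and 0 with DFO. The pseudogene Hbb-bh0 gave 13.1, 20.1 and 21.2 TPM with DTPA and 1.14, 0 and 0 with DFO. Both were all but absent from the DFO libraries, where their values rest on few reads.

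Among the adult chains, Hbb-bs gave 26156, 27318 and 25167 TPM with DTPA and 11054, 12848 and 12022 with DFO, with control at 19234 ± 1307 between them (1.13, adjusted p = 8.37e-09). Hbb-bt gave 11222, 4004 and 2782 TPM with DTPA and 1118, 1558 and 1264 with DFO. The first DTPA library was more than 2 times above the others, and without it the log2 fold change fell from 1.94 to 1.36 (adjusted p = 0.034). Hba-a1 was higher by 0.15 (rescaled 0.34) at 10152 ± 413 against 9164 ± 138 TPM, a call lost when genes of low level were not filtered out (adjusted p = 0.059). Hba-a2 was at 1887, 2064 and 2059 TPM with DTPA and 3140, 1619 and 2587 with DFO and was not called (interval -0.64 to 0.17). Without the second DFO library it was called lower, by 0.51 (adjusted p = 0.0010). Hbb-bs with Hbb-bt and Hba-a1 with Hba-a2 are near-identical copies, so that the split of reads within each pair is uncertain.

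**Figure D3:**
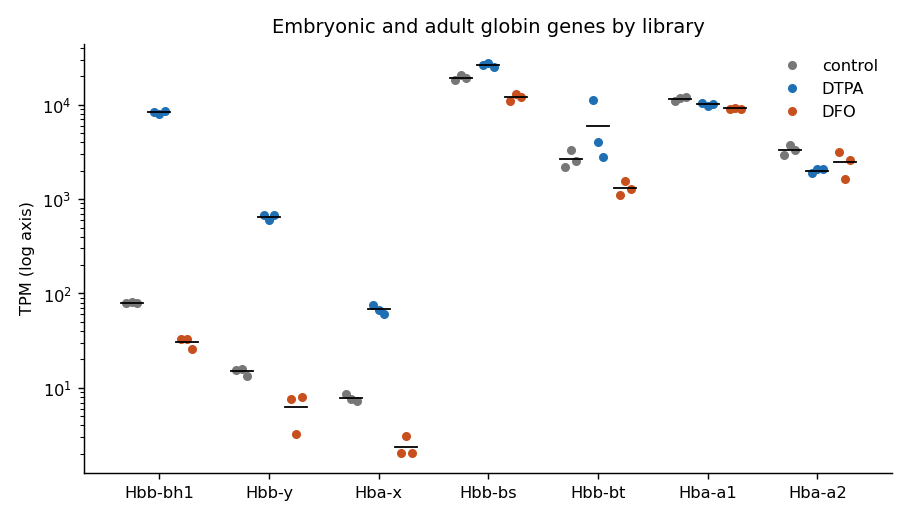
TPM of 7 globin genes in each control, DTPA and DFO library on a log axis, with bars at the group means. The 3 embryonic genes on the left lie highest with DTPA and lowest with DFO, while the adult alpha genes on the right lie within a narrow range in all groups.

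Erythroid genes other than globins were mostly lower with DTPA, some of them by 4-fold or more, while progenitor genes were mostly higher. Of the 32 genes for the red cell membrane, erythroid factors and late maturation, 22 were lower and 7 higher (median -0.55, rescaled -0.37). Of the 11 tested progenitor genes that GATA1 represses, Myb reached 1 TPM with DTPA alone, and of the other 10, 7 were higher and 3 lower (7 and 2 after rescaling). In bulk RNA, fewer cells of a type and less RNA per cell cannot be told apart.

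Slc4a1, which encodes band 3, the chloride and bicarbonate exchanger of red cells, gave 49.3, 43.4 and 43.8 TPM with DTPA against 472, 447 and 464 with DFO. Control stood at 747, 681 and 725 TPM, so that all 3 groups were apart and DTPA was far the lowest (log2 fold change -3.31, adjusted p = 2.42e-13). The blood group gene Rhd was at 0.969, 0.31 and 1.56 TPM with DTPA and 17.3, 21.8 and 19.6 with DFO (-3.45). Dmtn and Tmod1, which encode the actin-binding skeleton proteins dematin and tropomodulin 1, were lower by 2.04 and 1.97. Not all such genes fell: Kel, the Kell blood group gene, was higher at 31.3, 31.7 and 29.1 against 9.3, 11.1 and 9.97 TPM (1.51).

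Among erythroid factors, Gfi1b, a repressor needed in red cell and platelet lineages, was higher at 722, 774 and 750 TPM against 277, 268 and 265 (1.47, adjusted p = 1.51e-12). Ube2o, a ubiquitin enzyme that marks ribosomal proteins for removal late in maturation, was higher at 197 ± 5.26 against 73.7 ± 1.09 TPM (1.40), and Cited2 by 1.04. Klf1, the factor that drives adult beta globin, was at 689 ± 16.2 and 700.5 ± 8.43 TPM and was not called. Gata1 itself gave 1048, 1087 and 1039 TPM with DTPA and 2264, 2194 and 2233 with DFO, against 2501 ± 68.6 in control (-1.08, adjusted p = 1.96e-11). In this line Gata1 reads can come from the fusion gene or from the disrupted Gata1 gene, which these values do not separate.

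Kit, the receptor of immature cells, gave 27.02, 25.8 and 27.1 TPM with DTPA and 8.75, 8.37 and 8.56 with DFO, with control at 5.83 ± 0.199 (1.53, adjusted p = 7.96e-11). Spi1, the myeloid factor PU.1 that antagonises GATA1, gave 24.97, 21.9 and 22.5 TPM with DTPA and 6.73, 7.24 and 6.99 with DFO (1.59, adjusted p = 8.37e-09). Cd44 and Myc were higher by 1.25 and 0.99, and the 3 lower members were Runx1, Etv6 and Lyl1. For each of the 10 genes other than Myb the libraries of the chelators did not overlap, beside 21% of all genes with DTPA above DFO and 48.6% with DTPA below.

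Most markers of other blood cells were low or absent in all groups, and their sums were higher with DTPA. The summed level of 14 megakaryocyte markers was 38.2 to 47.7 TPM with DTPA, 10.3 to 10.9 with DFO and 8.26 to 9.34 in control, and Gp1bb, Ppbp, Clec1b and Thbs1 were among those at 0 throughout. Itgb3, integrin beta 3, gave 17.1, 17.7 and 16.05 TPM with DTPA and 1.65, 2.25 and 2.41 with DFO (2.54), and the platelet glycoprotein gene Gp1ba gave 15.97, 22 and 17.4 with DTPA and 6.398, 6.18 and 6.13 with DFO (1.41). Itga2b was not called. Mast cell and myeloid markers summed to 41.5 to 48.3 TPM with DTPA and 27.6 to 28.7 with DFO, most of it Gata2, and 13 of 22 were at 0, Mpo, Lyz2 and Csf3r among them. Lymphoid markers summed to 1.37 to 2.04 TPM with DTPA and 0.462 to 0.777 with DFO, with 8 of 15 at 0. Of the 15, 14 were below 0.1 TPM in all 6 DTPA and DFO libraries. Nearly all of the DTPA sum was Cd79a, at 1.45, 2.04 and 1.37 TPM, which reached 1 TPM with DTPA alone. The part of such cells in the differences above was not tested. Of the erythroid markers, Epor, the erythropoietin receptor gene, gave 79.5, 83.7 and 75.5 TPM with DTPA and 152, 153 and 155 with DFO. Alas2, Klf1, Tfrc and Slc4a1 were present in both groups at the levels given above.

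Genes of glycolysis and of the response to low oxygen were lower with DTPA. The control mean was nearer to DFO than to DTPA for 32 of the 33 genes tested, beside 92.1% of all called genes. The DFO mean was below the control mean for 26, a count without a share of all genes to set beside it. Of the 18 glycolytic genes tested, 14 were lower and 2 higher, with a median log2 fold change of -1.03. Of 15 other hypoxia-inducible genes, 11 were lower and 1 higher (3 higher and 10 lower after rescaling), with a median of -0.85.

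Ldha, lactate dehydrogenase A, whose promoter stretch above holds 5 matches to the hypoxia core, gave 153, 149.9 and 157 TPM with DTPA and 733, 836 and 962 with DFO. Control stood at 881, 1162 and 999.9 TPM, and the DTPA libraries lay far below both (log2 fold change -2.44, SE 0.111, adjusted p = 2.80e-09). Pfkl, Tpi1 and Pgk1, enzymes of upper and middle glycolysis, were lower by 2.06, 1.92 and 1.82, with Pgk1 at 127 ± 3.99 TPM against 452 ± 60.5. Aldoa, the most abundant glycolytic message, was not called (2424 ± 29.97 and 2574 ± 179 TPM, interval -0.22 to 0.05). Pfkm and Pfkfb4 were the 2 higher ones.

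Pdk1, which encodes a pyruvate dehydrogenase kinase, was at 2.08, 2.38 and 2.21 TPM with DTPA and 20, 21.2 and 21.7 with DFO (-2.77, adjusted p = 7.72e-11). Vegfa, the vascular growth factor, gave 0.131, 0.288 and 0.232 TPM with DTPA and 4.47, 4.78 and 5.53 with DFO, with control at 8.02 ± 1.03 above both. At such levels the size depends on the pseudocount, -2.28 with 1 TPM and -4.01 with 0.1 TPM, and all DTPA libraries lay below all DFO libraries. Bnip3, a mitophagy receptor whose promoter holds the CACGTG palindrome, gave 41.2, 43.8 and 45.7 TPM with DTPA and 182, 214 and 239.9 with DFO (-2.25), against 253 ± 31.5 in control. Mif, a cytokine gene, was lower by 2.11. Kdm3a, a histone demethylase induced by hypoxia, was at 115 ± 5.63 and 112 ± 1.04 TPM, not called as deposited and higher by 0.21 after rescaling. Egln3, a classical target, was below the filter and was not tested.

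**Figure D4:**
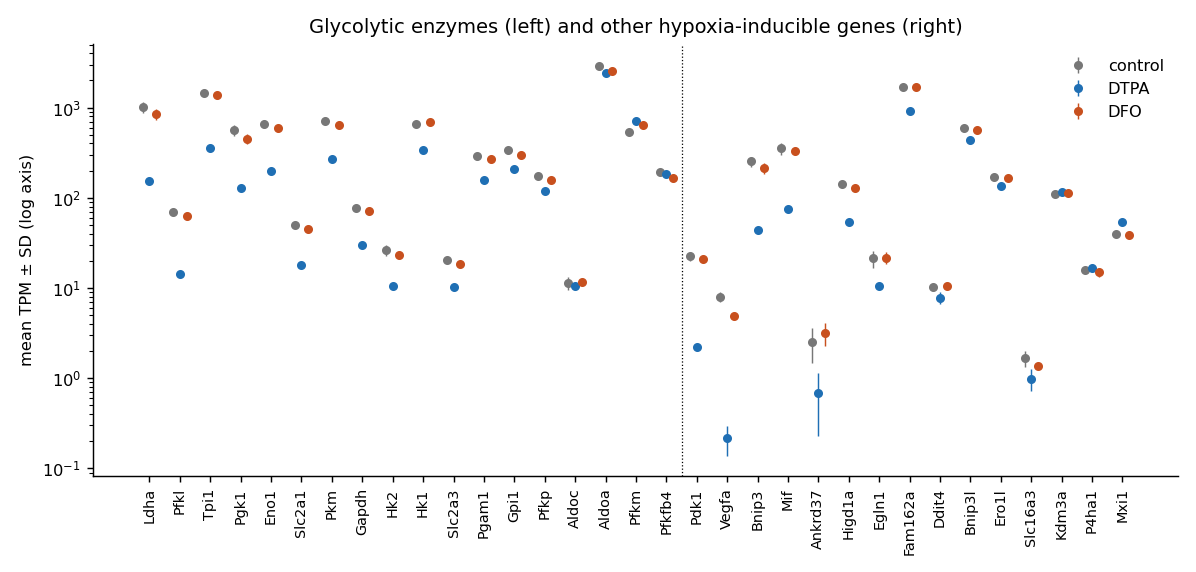
Mean TPM ± SD of the 18 tested glycolytic genes (left of the dotted line) and 15 other hypoxia-inducible genes (right) in control, DTPA and DFO on a log axis, each set ordered by log2 fold change. The DTPA points lie below the others for Ldha, Pfkl and Tpi1 on the left and for Pdk1, Vegfa and Bnip3 on the right, and the points of the 3 groups nearly coincide for Aldoa and Kdm3a.

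Enzymes that need iron and 2-oxoglutarate, which oxidise proline, histones or nucleic acids, were tested as a list of 27. Of these 17 were lower and 2 higher with DTPA, beside 46.4% and 19.6% of all genes, and 10 lower and 7 higher after rescaling, beside 31.9% and 31.7%. The list had a median of -0.23 beside -0.16 for all genes. Egln1, the main prolyl hydroxylase of hypoxia-inducible factors and itself a hypoxia target, had the largest fall, at 10.4 ± 0.824 against 21.7 ± 3.09 TPM (-0.98). Fto and Kdm5b were the higher ones.

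Genes of the amino acid stress response were lower with DTPA. Of 21 targets of ATF4, the factor that is translated when eIF2α is phosphorylated, as by the heme-regulated kinase HRI, 17 were lower with DTPA and none higher (1 higher and 14 lower after rescaling, median -0.50). Asns, asparagine synthetase, gave 204, 206 and 203 TPM with DTPA and 441, 460.2 and 449 with DFO (-1.14, adjusted p = 8.87e-13). Its control level was 423 ± 4.66, nearer to DFO. Shmt2, the mitochondrial serine enzyme, was lower by 1.71, and the glutamine transporter gene Slc1a5 by 1.66. Nupr1 was at 7.81 ± 1.39 against 23.8 ± 1.87 TPM, with control at 17.7 ± 0.998 between them.

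Among aminoacyl-tRNA synthetases the cytosolic and mitochondrial enzymes differed in their counts. Of 17 cytosolic ones, 15 were lower with DTPA and 2 higher (median -0.53). Of 17 mitochondrial ones, 6 were lower, 2 higher and 9 not called (median -0.13, 5 lower and 5 higher after rescaling). Aars had the largest fall (-1.33, 115 ± 3.05 against 291 ± 3.83 TPM), and its exons overlap Exosc6 on the same strand. Lars2, the mitochondrial leucine enzyme, was higher at 779, 775 and 697 TPM against 354, 377 and 369.6 (1.03), with control at 529 ± 135 between the groups. The difference between these kinds of enzyme was not tested.

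Cholesterol synthesis genes were lower with DTPA without exception: all 22 tested were called lower, as they were after rescaling, with a median of -1.20, and for all 22 every DTPA library lay below every DFO library. Of all genes 46.4% were called lower and 48.6% lay wholly below. Hmgcs1, which makes the precursor of mevalonate, gave 158, 166 and 159.6 TPM with DTPA and 479.7, 484 and 469.8 with DFO (-1.56, adjusted p = 8.87e-13). DFO lay at the control level of 469 ± 8.64. Fdps, which makes farnesyl diphosphate, had the largest fall (-2.21, 5.61 ± 0.602 against 29.6 ± 1.98 TPM), although its exons overlap a predicted gene on the same strand. Mvk, Sqle and Lss, from early to late steps of the pathway, also lay within this group.

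Genes of the cell division cycle were lower with DTPA, many of them by more than 2-fold. All 24 genes of mitosis and all 32 of DNA replication were lower with DTPA (31 of the latter after rescaling), with medians of -3.03 and -1.44. All 24 mitosis genes and 23 of the 32 replication genes differed at least 2-fold, beside 6.13% of all genes lower by as much. Mki67, the proliferation marker Ki-67, gave 16.03, 16.97 and 15.9 TPM with DTPA and 181, 169.9 and 174 with DFO, against 217 ± 6.86 in control (-3.35, adjusted p = 3.70e-14). Birc5, survivin of the chromosomal passenger complex, gave 4.501, 3.23 and 4.39 TPM with DTPA and 71.95, 74.1 and 73.4 with DFO (-3.89), the largest fall of the list. Control means of both lay above the DFO means (88.9 TPM for Birc5).

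Rrm2, the subunit of ribonucleotide reductase that holds the iron centre, gave 6.995, 6.56 and 5.97 TPM with DTPA and 76.05, 72.99 and 76.9 with DFO (-3.35, adjusted p = 4.18e-13). Its control level was 104 ± 4.58. Mcm5, part of the replicative helicase, was lower by 3.26 and Uhrf1, which maintains DNA methylation, by 2.89. Of 19 targets of p53, which halts the cycle after damage, 11 were higher and 5 lower with DTPA (median 0.26), and none differed 2-fold. Bbc3, the death gene Puma, was higher at 195, 192 and 195 TPM against 109, 110.3 and 119 (0.78), and Cdkn1a, the cell cycle inhibitor p21, at 247 ± 4.93 against 195 ± 5.58 TPM.

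Most genes of large protein complexes differed by less than 2-fold, and within a complex most called members went one way. Of 77 cytosolic ribosomal protein genes 68 were higher with DTPA and none lower (75 after rescaling), with a median of 0.34 in a data set where 19.6% of genes were higher. The small subunit genes had a median of 0.42 and the large subunit genes of 0.34. Of 77 mitochondrial ribosomal protein genes 68 were lower and none higher (53 lower and 5 higher after rescaling, median -0.45). Mrps18c had the largest fall (-1.49, 25.2 ± 1.01 against 72.5 ± 2.49 TPM), and its exons overlap a predicted gene on the same strand.

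Nuclear genes of the respiratory chain were lower in 66 of 79 cases and higher in 3 (54 lower and 9 higher after rescaling, median -0.45). Complex I had 30 of 36 lower, complex II 4 of 4, complex III 8 of 8, complex IV 9 of 14 and complex V 15 of 17, and after rescaling these counts were 24, 2, 7, 8 and 13. The higher ones all belong to complex IV: Cox7a1, Cox7a2l and Cox6b2. Cox7a1, a tissue-restricted subunit, gave 992, 1007 and 1069 TPM with DTPA and 359.7, 354 and 351 with DFO (1.52, adjusted p = 3.37e-11), with control at 360.2 ± 23.2. Of the 13 proteins encoded in mitochondrial DNA, 5 were higher and none lower (8 higher after rescaling), mt-Co1 by 0.30 (rescaled 0.49). Nuclear and mitochondrial genes for the respiratory chain thus had medians of opposite sign, -0.45 and 0.15.

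Proteasome subunits were lower in 33 of 35 cases, with 0 higher (26 lower and 3 higher after rescaling, median -0.40). The core and regulatory particles had medians of -0.40 and -0.39. Chaperones of the endoplasmic reticulum were lower in 15 of 18 cases (9 after rescaling), but Dnajb9 and Herpud1, targets of the unfolded protein response, were higher by 0.54 and 0.25 (the latter 0.43 after rescaling). Autophagy genes were higher in 10 of 22 cases and lower in 5 (17 and 2 after rescaling). Atg2a, a lipid transfer protein of the growing autophagosome, was higher at 142, 148 and 138 TPM against 70.5, 66.02 and 72.6 (1.02). Ulk1, the kinase that starts autophagy, was higher by 0.85, and Atg14, part of the lipid kinase complex, by 0.73.

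Zinc finger genes named Zfp showed no common direction. Of 280 tested, 69 were higher, 108 lower and 103 not called (113 higher and 66 lower after rescaling), and the median of -0.09 lay near that of all genes. Zfp27 had the largest rise at 25.3 ± 0.873 against 10.4 ± 1.31 TPM and Zfp763 the largest fall at 3.18 ± 0.37 against 9.65 ± 0.339 TPM. Of 9 clustered histone genes 2 could be tested. Hist1h2al was higher at 23.6, 23.3 and 24.2 TPM against 3.48, 2.83 and 6.795, and Hist1h2bp was lower at 0.549 ± 0.352 against 1.46 ± 0.542 TPM, a call lost without the third DTPA, the second DFO or the third DFO library (adjusted p between 0.066 and 0.079) and with only the 6 libraries fitted (0.054).

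**Figure D5:**
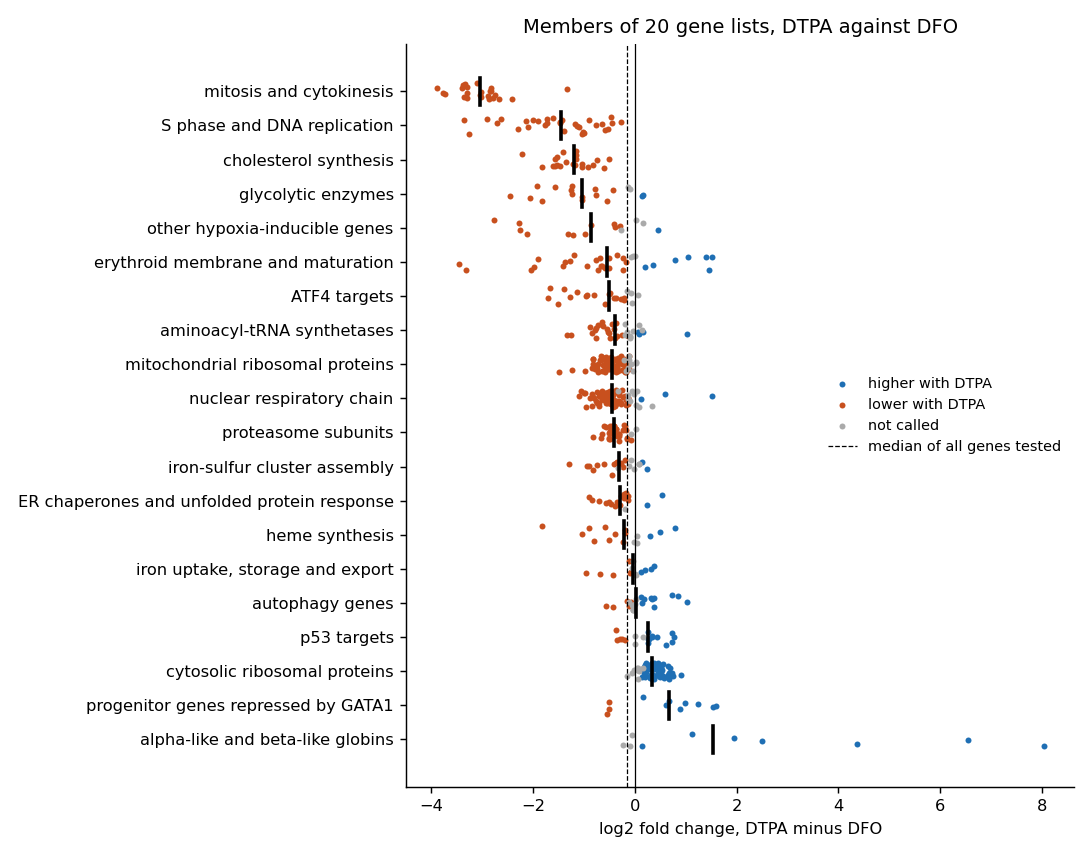
Log2 fold changes (DTPA minus DFO) of the tested members of 20 gene lists, 1 point a gene, coloured by call, with a bar at each list's median and a dashed line at the median of all 11917 genes. Mitosis genes lie farthest left with a median of -3.03 and globin genes farthest right with 1.54, while iron and autophagy genes spread around 0. Without Hbb-bh2, which reached 1 TPM with DTPA alone, the globin median was 1.13.

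Outside these lists, the largest rises included genes of other blood cells and of other tissues. Alpk3, an alpha-kinase best known from heart muscle, gave 82.6, 86.8 and 84.1 TPM with DTPA and 4.57, 4.64 and 4.52 with DFO, with control at 2.85 ± 0.412 (3.94, adjusted p = 1.36e-12). Laptm5, a lysosomal membrane protein of blood cells, gave 489, 507 and 474 TPM with DTPA and 63.3, 67.9 and 65.8 with DFO (2.88). Srgn, the granule proteoglycan serglycin, gave 323, 327 and 335 TPM with DTPA and 41.8, 45.7 and 45.6 with DFO (2.86). Vav1, a signalling protein of blood cells, gave 145, 149.8 and 145 TPM with DTPA and 18.9, 22.1 and 19.2 with DFO (2.81). For each of these 4 genes the DTPA libraries lay above the rest by several-fold. Gip, an intestinal hormone, and Cpz, a secreted carboxypeptidase that holds zinc, were higher by 3.27 and 3.11. The mitochondrial threonine tRNA mt-Tt was at 46.1, 23.98 and 53.9 TPM with DTPA and 0, 2.39 and 6.07 with DFO, a short RNA that libraries of polyadenylated RNA capture poorly.

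The 15 largest falls under the naming rule also included the division genes Spc24, Cdc25c, Ube2c, Cdca3, Ckap2l and Kif4, which were lower by 3.35 to 3.55. Slc52a3, which encodes a riboflavin transporter, had the largest fall after Mt2 among the genes named. It gave 0.914, 1.21 and 1.53 TPM with DTPA and 40.3, 40.6 and 39.9 with DFO, with control at 37.5, 50.5 and 50.6 TPM (-4.23, adjusted p = 5.37e-11). Its DTPA libraries were all below 2 TPM.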

How the data were processed

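Polyadenylated RNA was sequenced from 12 libraries in 4 groups of 3, grouped by their titles. For the SA group, which did not enter the contrast, the labels' treatment text names DFO and the titles SA. The authors deposited TPM values, 1 table of 55487 gene rows per library, in build mm10. Per the submitters' processing notes, reads were handled with HISAT2 2.1.0, Trimmomatic 0.33, featureCounts, edgeR and FastQC. In the sources used here the settings, the annotation and whether counting used strand are not given. A kit that keeps strand was used, per the labels' protocols.

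For 114 symbols that occur more than once, the row with the highest mean was kept. Genes that reached 1 TPM in 3 or more libraries were fitted as log2(TPM + 1) with limma 3.58.1 in R 4.3.3, with 1 mean for each group of the 12 libraries, a mean-variance trend and no covariate. The contrast was DTPA minus DFO, with Benjamini-Hochberg adjustment over 11917 genes and a threshold of 0.05. Rescaling divided each library by the median of its gene ratios. Reads were recovered from TPM and GENCODE M21 exon lengths (98.8% to 99.0% of values up to 200 reads were whole within 0.1 read). The fit was tested on simulated data. Replicates differed beyond counting noise in every pair, and none held identical values.

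The comparison, the 32 gene lists and the tests were chosen with earlier results of these data known, so lists are described by counts without a test. The name pattern of the respiratory chain list was tightened after the files were seen, to leave out pseudogenes. The text names the 15 called genes with the largest rise and the 15 with the largest fall (separate libraries, mean of 5 TPM or more in a group), the 4 called members of each list that changed most, 1 uncalled member per list with a narrow interval, 5 genes with control outside the range of both groups, and a fixed set of zinc, iron, heme and erythroid genes. Predicted genes were left out, some names were dropped for length, and some genes that the rule names are not reported here. Slc39a1, Slc25a28, Tfr2, Slc40a1, Epor, Uros, Urod, Clpx, Flvcr1, Srxn1, Iscu, Kel, Gfi1b, Ube2o, Cited2, Klf1, Cdkn1a, Dnajb9, Herpud1 and the other list members outside this rule were chosen after their values were seen. Alternatives were other pseudocounts, filters and scalings, a fit of 6 libraries, a robust fit, a replicate block, each library left out, voom on recovered reads and all rows kept. Plots were drawn with matplotlib 3.10.9 from tables read with pandas 2.3.3.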

Additional observations from a re-analysis of the deposited data

How the results depend on the processing

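The number of called genes, 7857, stayed within 1.5 times under the 18 alternatives, from 7067 of fewer genes with a filter of 5 TPM to 7966 with no filter, and was 7605 with voom on the recovered reads. The split by direction depended on the scaling: 3775 genes were higher with DTPA after median-of-ratios scaling and 3687 after trimmed-mean scaling, against 2330 as deposited. With globin, ribosomal protein and mitochondrially encoded genes left out, 3096 were higher and 4350 lower, and with voom 3003 and 4602. A pseudocount of 5 TPM left 570 genes with at least 2-fold differences, 180 higher and 390 lower, because it shrinks the change of low genes. Leaving out 1 library at a time gave 7438 to 7527 called genes, 2118 to 2232 higher and 5230 to 5351 lower. With at least 2-fold change these fits gave 1060 to 1086 genes, 329 to 345 higher and 715 to 749 lower. The log2 fold change of Ireb2 turned to 0.0587 after median-of-ratios scaling and 0.0489 after trimmed-mean scaling. Of the 174 genes of the naming rule, median-of-ratios scaling added a call for 18 and removed it for 1 without a change of sign. Among those called as deposited it turned the sign of Ireb2 alone, which also lost its call. Signs of some uncalled genes turned too, as for Abcb10 (-0.017 to 0.17). By over 1.5 times that scaling moved 15 called genes of the rule and trimmed-mean scaling 14, and the rescaled values of those with a log2 fold change in the report stand beside it. A pseudocount of 5 TPM moved the log2 fold change of 24 called genes by over 1.5 times, all under 5 TPM on average with 1 of the chelators, among them Slc39a10 (1.93), Itgb3 (1.63), Pdk1 (-1.85) and Rhd (-2.05). Leaving out any 1 library moved none of the called genes of the rule by that much. The replicate numbers did not pair the DTPA with the DFO libraries (correlations of -0.0141, -0.00563 and -0.000982 between same-numbered ones). Such correlations were not taken for the control and SA libraries. A fit with the replicate block called 7792 genes, 2298 higher and 5494 lower. Depth limits genes near 1 TPM, where a library holds few reads for a short transcript, and intervals from reads would cover counting error only.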
